A study of Mus musculus with 36 samples.

Results

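A set of 31 genes of cholesterol and fatty acid synthesis was followed over a time course of transforming growth factor β1 (TGF-β1) in mouse blood progenitors. The genes were named one by one for their place in the pathway. They are the enzymes of the mevalonate steps, of the steps from squalene to cholesterol and of fatty acid synthesis and desaturation, with a few proteins that sense or carry sterols. A gene was read from the probe set that carries its symbol alone, and where several do, from the brightest on average across the 36 arrays. In this way 30 of the 31 genes were measured, among 19938 genes in all, and the level of Acat2 was not analysed here. The 30 genes split into 6 of the mevalonate steps, 11 of the steps from squalene to cholesterol, 5 of sterol sensing and transport and 8 of fatty acid synthesis and desaturation.

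Multipotent progenitors (MPP), which can still form many blood lineages, and common dendritic progenitors (CDP), already set on the dendritic cell lineage, were grown out of mouse bone marrow with cytokines and isolated by FACS. The sources used here give no mouse strain for them. Cells of each type were taken untreated (0 h) or after 2, 4, 8, 12 or 24 h with recombinant human TGF-β1 at 10 ng/ml, with 3 biological replicates in each of the 12 groups and 36 arrays in all (Affymetrix Mouse Gene 1.0 ST). One treatment text names 6 h where titles and methods name 8 h, and 8 h is used here. Untreated cells of later times were not analysed here, and TGF-β1 and time in culture therefore cannot be told apart in any difference from 0 h.

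Cells make cholesterol from acetyl-CoA through mevalonate, isoprenoid diphosphates, squalene and lanosterol, and make fatty acids from the same acetyl-CoA through malonyl-CoA. Most of these enzymes are known targets of the SREBP transcription factors, which are held in the endoplasmic reticulum by SCAP and INSIG proteins while sterol is plentiful and are carried to the Golgi and cleaved when it is scarce. Desaturases then place double bonds in fatty acids, SCD enzymes in saturated chains and FADS enzymes in polyunsaturated ones. Growing progenitors draw on these routes for new membrane.

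Promoter sequence is shown for 5 sterol enzymes, 4 of them among the genes with the largest changes below, so that the letters upstream of such genes can be read beside their values. RefSeq's promoter table (GRCm38.p6) held 30 windows for 24 of the 31 genes, Acat2 among them. It held none for Scd1, Scd2, Fads1, Fdft1, Sqle, Fdps and Stard4. Only the 250 bases before the start of transcription were searched, on both strands. A sterol response element, TCACNCCAC, was found in 1.05% of all 32851 windows of the table and in 1 of the 30 windows, that of Hmgcs1, with its first base at −137 from the start. CCAAT was found in 33.8% of all windows and in 19 of the 30, and the GC box GGGCGG in 32.7% of all and in 22 of the 30. The Smad palindrome GTCTAGAC was in 0.167% of all windows and in 0 of the 30. The sequences below run 5′ to 3′ on the gene's strand up to the last base before the start, with matches to any of these motifs in capitals (ATTGG and CCGCCC are CCAAT and GGGCGG on the other strand). They lie at chr13:119690101-119690350 (plus strand) for Hmgcs1, chr13:8885356-8885605 (plus) for Idi1, chr8:64733579-64733828 (minus) for Msmo1, chr1:169969206-169969455 (minus) for Hsd17b7 and chr5:4104698-4104947 (minus) for Cyp51. Hmgcs1 was added for its sterol response element after its values were seen. The Hsd17b7 and Msmo1 stretches hold 3 CCAAT boxes each, with 3 and 2 GC boxes, and the Cyp51 stretch holds 1 of each. A match describes letters in these windows and nothing about binding.
Hmgcs1: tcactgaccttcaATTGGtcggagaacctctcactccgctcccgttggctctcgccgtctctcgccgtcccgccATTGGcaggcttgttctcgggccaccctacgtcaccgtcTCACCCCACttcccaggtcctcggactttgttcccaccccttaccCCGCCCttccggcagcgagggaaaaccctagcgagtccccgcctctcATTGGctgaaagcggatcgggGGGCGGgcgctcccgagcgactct
Idi1: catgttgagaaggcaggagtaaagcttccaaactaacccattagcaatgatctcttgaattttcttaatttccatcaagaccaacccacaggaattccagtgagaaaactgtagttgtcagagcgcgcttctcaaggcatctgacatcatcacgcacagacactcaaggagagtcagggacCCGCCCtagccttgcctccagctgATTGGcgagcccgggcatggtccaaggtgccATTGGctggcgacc
Msmo1: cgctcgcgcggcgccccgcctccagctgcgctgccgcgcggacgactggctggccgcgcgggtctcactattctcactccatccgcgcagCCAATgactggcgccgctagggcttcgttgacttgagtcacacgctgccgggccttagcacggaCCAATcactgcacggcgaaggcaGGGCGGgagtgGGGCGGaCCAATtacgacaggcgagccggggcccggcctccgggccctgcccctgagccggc
Hsd17b7: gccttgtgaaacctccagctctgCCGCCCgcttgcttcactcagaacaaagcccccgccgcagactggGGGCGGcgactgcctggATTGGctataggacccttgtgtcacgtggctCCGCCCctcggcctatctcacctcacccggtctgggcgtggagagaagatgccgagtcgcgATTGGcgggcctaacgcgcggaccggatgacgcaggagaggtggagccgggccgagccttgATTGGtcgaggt
Cyp51: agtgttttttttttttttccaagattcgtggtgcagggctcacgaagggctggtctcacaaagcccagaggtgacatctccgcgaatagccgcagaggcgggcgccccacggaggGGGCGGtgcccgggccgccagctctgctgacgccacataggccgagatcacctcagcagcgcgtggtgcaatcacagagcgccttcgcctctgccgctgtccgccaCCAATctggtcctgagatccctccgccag

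Levels are log2 intensities, on which a difference of 1 is 2-fold, and errors are SD over 3 arrays for a level and limma standard errors (SE) for a difference. Values of a group are given for replicates 1, 2 and 3 in that order. A gene passed at a Benjamini-Hochberg adjusted p under 0.01 over all 19938 genes, from limma fits of 1 cell type each that hold the replicate as a block. Only passed genes are said to have risen or fallen. All 30 genes had a mean level at or above the median of all genes (7.95). Levels of different genes are not compared, since each comes from its own probes.

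Arrays of a group correlated at 0.985 or more. Kit stood at 11.3 ± 0.101 in untreated MPP and 8.63 ± 0.23 in untreated CDP, and Flt3 at 10.23 ± 0.531 and 12.37 ± 0.0794. These are single genes of a longer list of MPP or CDP markers, and they do not show that either population was pure. Monocyte and macrophage markers had a mean of 11.308 ± 0.179 in untreated MPP and 11.075 ± 0.23 in untreated CDP. The mean of 10 neutrophil granule genes was 12.06 to 12.87 in untreated MPP and 8.81 to 9.23 in untreated CDP, and that of 8 lymphoid markers lay between 6.52 and 6.78 on all 36 arrays. Replicate 3 stood apart in its interferon-stimulated genes, whose mean over 14 genes was 8.95 in untreated MPP replicate 3 against 8.04 and 8.01 in the others. In CDP the mean was 10.44 at 0 h and 12.41 at 2 h in replicate 3, against 8.57 and 8.37 at 0 h and 8.26 and 8.27 at 2 h. The 4 h arrays of CDP stood at 10.39, 8.22 and 9.90 in replicates 1, 2 and 3. Later CDP arrays differed too, with 9.51 at 8 h and 9.17 at 12 h in replicate 3 against 7.89 to 7.96 in the others, and with 9.45, 8.63 and 9.99 at 24 h. The counts of genes and the mean of the genes are therefore also given without replicate 3, and calls are given with single arrays left out. The part of these genes in the results was not tested.

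The mean level of the 30 genes was lower at 2 and 4 h than at 0 h in both cell types, and in CDP it was higher than at 0 h at 8 and 12 h. In MPP the mean of the 30 genes was 11.66, 11.71 and 11.52 at 0 h, 11.53, 11.52 and 11.48 at 2 h and 11.54, 11.49 and 11.46 at 4 h. It then stood at 11.69, 11.69 and 11.63 at 8 h, 11.73, 11.75 and 11.65 at 12 h and 11.70, 11.72 and 11.58 at 24 h. Within each replicate of MPP the mean was below its 0 h value at 2 h (differences of −0.130, −0.191 and −0.043) and at 4 h (−0.118, −0.221 and −0.063), while from 12 h on all 3 replicates lay above it. In CDP the mean was 11.55, 11.57 and 11.21 at 0 h, 11.39, 11.40 and 11.18 at 2 h and 11.48, 11.41 and 11.21 at 4 h. It then reached 11.80, 11.70 and 11.52 at 8 h and 11.78, 11.73 and 11.44 at 12 h, and stood at 11.58, 11.58 and 11.41 at 24 h. Within replicates 1, 2 and 3 the CDP difference was −0.156, −0.175 and −0.026 at 2 h. At 4 h it was −0.070, −0.158 and 0.004, so that replicate 3 was not lower then. CDP replicate 3 was the lowest of its group at every time, yet within it too the mean was higher at 8 h (by 0.311) and at 12 h (by 0.225) than at 0 h. The mean over the members is a description and was not tested, and in bulk RNA fewer cells of a type and less RNA per cell cannot be told apart. Without untreated MPP replicate 3, the array with high interferon-stimulated genes, the MPP difference from 0 h was −0.177 in place of −0.121 at 2 h and −0.189 in place of −0.134 at 4 h, and it changed sign at 8 h (−0.0165 against 0.0393) and at 24 h (−0.0174 against 0.0384). This omission takes the lowest array out of the 0 h mean but leaves the treated arrays of replicate 3 in. Within replicates 1, 2 and 3 the MPP difference was 0.027, −0.016 and 0.107 at 8 h and 0.042, 0.013 and 0.060 at 24 h. Without replicate 3 at all times the MPP differences were −0.160, −0.169, 0.0052, 0.052 and 0.027 at 2, 4, 8, 12 and 24 h, and those of CDP were −0.166, −0.114, 0.188, 0.192 and 0.020, where all arrays gave −0.119, −0.0747, 0.229, 0.203 and 0.0805. Without untreated CDP replicate 3 alone the CDP differences were −0.236, −0.192, 0.112, 0.086 and −0.036, so that the sign at 24 h turned. That omission takes the lowest replicate out of the 0 h mean but not out of the treated means. Within replicates 1, 2 and 3 the CDP difference at 24 h was 0.033, 0.007 and 0.202. The 2 h difference in CDP was −0.049 without 2 h replicate 3, and the 4 h difference was −0.130 without 4 h replicate 1. These CDP omissions and that of replicate 3 were chosen after seeing the data.

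**Figure D1:**
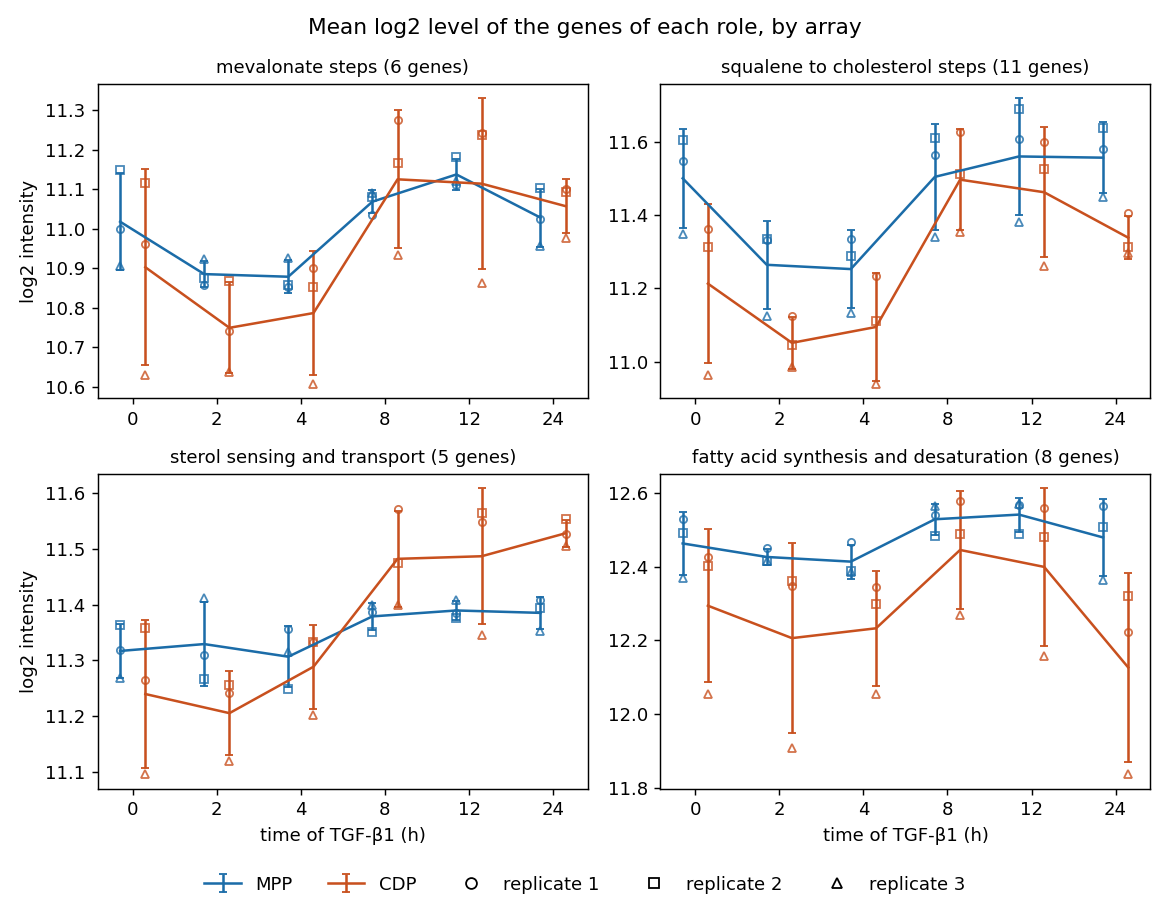
Mean log2 level of the genes of each role on every array (y axis, log2 intensity) against time of TGF-β1 in hours (x axis, evenly spaced), for MPP (blue) and CDP (orange). Symbols are replicates and lines join the means of 3 arrays, with bars of 1 SD. The squalene to cholesterol genes were lower at 2 and 4 h than at 0 h in all 3 MPP replicates, and the sensing and transport genes of CDP lay between 11.40 and 11.57 at 8 h and between 11.10 and 11.36 at 0 h.

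Counted gene by gene in MPP, 6 of the 30 genes fell and 0 rose at 2 h, where 1.00% of all genes fell and 2.26% rose. At 4 h 9 fell and 0 rose, against 2.06% and 2.98% of all genes. In limma's unadjusted tests at p under 0.05, 2 and 4 of the genes were higher at these times. The later counts were small. At 8 h 2 rose and 0 fell (3 at the unadjusted p), with 5.46% and 3.71% of all genes, and at 12 h 3 rose and 0 fell (also 0 at the unadjusted p), with 4.73% and 3.58%. At 24 h 4 rose and 1 fell, against 5.61% and 4.09% of all genes. The median difference of the 30 genes was −0.118, −0.131, 0.020, 0.064 and 0.031 at the 5 times, while the median of all genes stayed between −0.008 and 0.021. Between 4 h and 24 h, 8 of the 30 genes rose and 0 fell (1 at the unadjusted p), against 2.78% and 1.82% of all genes, with a median of 0.173 against −0.0168 for all genes. The moderated F-test over the time course passed 14 of the 30 genes in MPP, where it passed 12.9% of all genes.

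In CDP the early counts were lower and the later ones higher than in MPP, each from its own fit. Such counts do not compare the responses of the cell types, for which the interaction test is given below. At 2 h limma passed 0 of the 30 genes in either direction, where 1.12% of all genes rose and 0.808% fell, and at an unadjusted p under 0.05 10 were lower and 1 was higher. At 4 h 2 rose and 1 fell, against 2.33% and 2.51% of all genes. At 8 h 9 rose and 0 fell (also 0 at the unadjusted p), against 4.62% and 4.89% of all genes, and 28 of the 30 differences were above 0. At 12 h 8 rose and 0 fell (0 at the unadjusted p), against 5.58% and 6.10%. At 24 h 5 rose and 3 fell, against 7.83% and 11.9%, and Scd1 was the 1 gene of the 30 that fell at least 2-fold, as 1.79% of all genes did. The median difference of the 30 genes was −0.151, −0.080, 0.273, 0.216 and 0.127 at the 5 times, with that of all genes between −0.0104 and 0.001. From 4 h to 24 h 8 rose and 2 fell, against 5.21% and 8.26% of all genes. The F-test passed 22 of the 30 in CDP, where it passed 20.6% of all genes, 13 genes passed it in both cell types and 7 in neither.

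These counts depended on the replicate block. Without the block 0, 0, 2, 1 and 1 of the genes passed in MPP at 2, 4, 8, 12 and 24 h and 0 between 4 and 24 h, and 0, 0, 1, 3 and 2 passed in CDP with 2 between 4 and 24 h. Without replicate 1 at all times, which leaves 2 arrays a group, 1, 0, 0, 1 and 0 passed in MPP and 0, 0, 0, 0 and 4 in CDP. Without replicate 3, 5, 9, 2, 4 and 3 passed in MPP and 1, 1, 4, 6 and 5 in CDP. A call said below to hold without any single array can still have been lost without a replicate number or without the block.

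**Figure D2:**
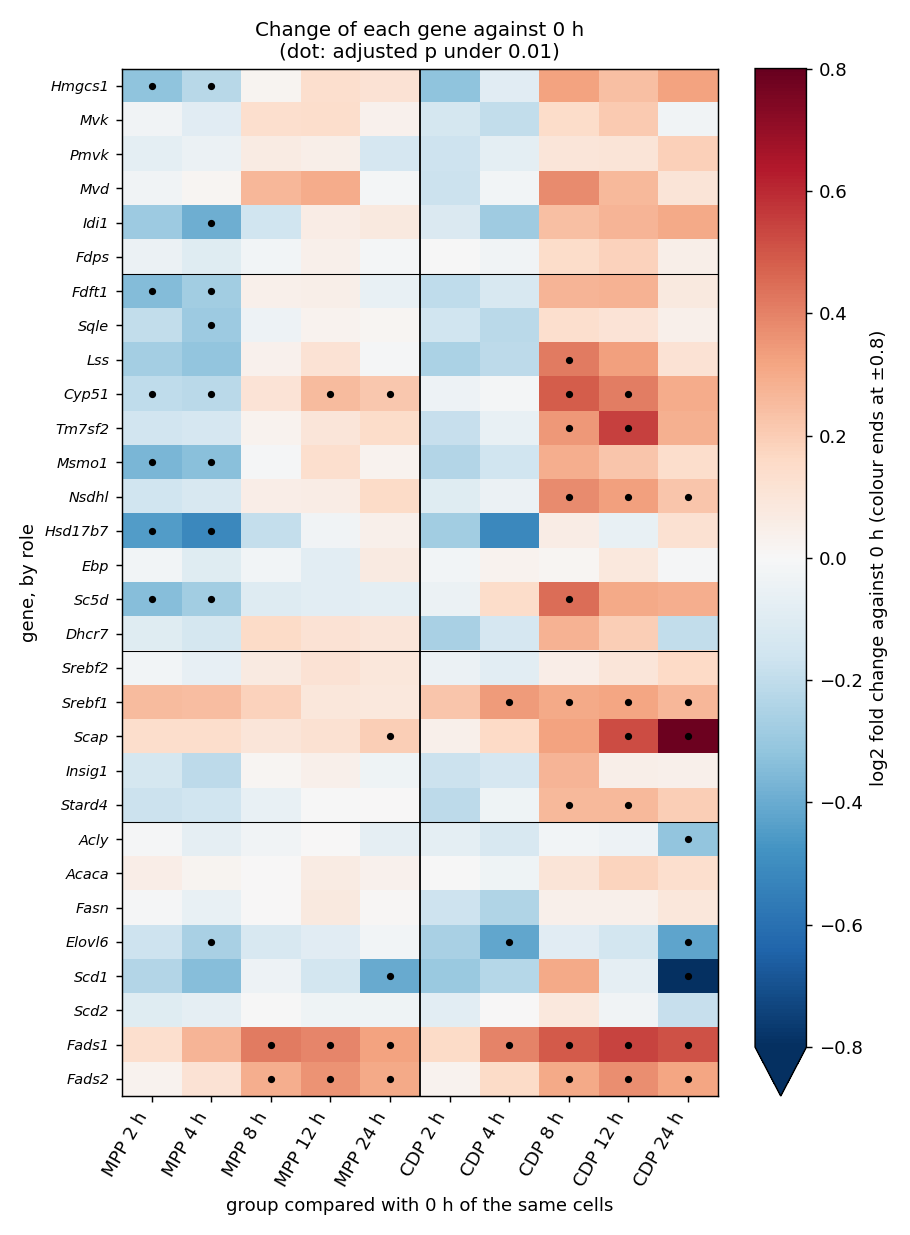
Log2 fold change of each of the 30 genes (rows, grouped by role) against 0 h of the same cells, for 5 times in MPP and 5 in CDP (columns). Red is higher and blue lower than at 0 h, the colour ends at 0.8 in either direction, and a dot marks an adjusted p under 0.01. Early dots in MPP lie on sterol enzymes and, at 4 h, also on Elovl6. In CDP 8 h dots lie on 9 genes, and Fads1 and Fads2 carry dots from 8 h on in both. Scd1 in CDP at 24 h (−1.47) lies beyond the end of the colour scale.

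Of the mevalonate enzymes, Hmgcs1 and Idi1 fell in MPP and the other 4 passed at no single time. Hmgcs1 makes HMG-CoA, the substrate of the pathway's rate-limiting reductase. Its levels in MPP were 12.13, 12.25 and 11.99 at 0 h, 11.88, 11.83 and 11.68 at 2 h and 11.93, 11.89 and 11.88 at 4 h, and every array of 2 and 4 h lay below every array of 0 h. The log2 difference was −0.32 ± 0.0463 (adjusted p = 0.000322) at 2 h and −0.22 ± 0.0463 (adjusted p = 0.00564) at 4 h, and the gene rose again from 4 h to 24 h by 0.34 ± 0.0463 (adjusted p = 0.000201). The 2 h call held without any single array, while the 4 h call was lost in 5 of 18 such omissions, with differences of −0.245 to −0.176. In CDP the levels were 12.06, 12.07 and 11.54 at 0 h, 11.56, 11.60 and 11.53 at 2 h, 12.32, 12.34 and 11.98 at 8 h and 12.24, 12.17 and 12.22 at 24 h. The 2 h difference in CDP, −0.32 ± 0.0918 (adjusted p = 0.0713), was as large as in MPP but did not pass, and replicate 3, was at 11.54 untreated and 11.53 at 2 h.

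Idi1, the isomerase that interconverts the isoprenoid building blocks, stood in MPP at 11.78, 11.76 and 11.57 at 0 h, 11.58, 11.62 and 11.03 at 2 h and 11.37, 11.41 and 11.15 at 4 h, and later at 11.72, 11.66 and 11.25 at 8 h, 11.85, 11.86 and 11.57 at 12 h and 11.81, 11.92 and 11.62 at 24 h. The 4 h arrays were all below the 0 h arrays. The fall at 4 h was −0.39 ± 0.0653 (adjusted p = 0.000934) and the rise from 4 h to 24 h 0.47 ± 0.0653 (adjusted p = 0.000224), both kept without any single array. Both were lost without replicate number 1 or 2 and without the block. In CDP it stood at 11.51, 11.62 and 11.17 at 0 h, 11.23, 11.22 and 10.99 at 4 h and 11.91, 11.53 and 11.77 at 24 h, and rose by 0.59 ± 0.106 (adjusted p = 0.000962) between the last 2 of these. A second Idi1 probe set gave −0.376 at 4 h in MPP. Mvk, Pmvk, Mvd and Fdps, the other enzymes on the way to farnesyl diphosphate, passed at no single time, and their differences from 0 h ran from −0.19 (Mvk, a kinase, at 4 h in CDP) to 0.38 (Mvd, the decarboxylase, at 8 h in CDP). Over the time course Mvk and Mvd passed the F-test in CDP (adjusted p = 0.00862 and 0.00329).

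The steps from squalene to cholesterol held most of the early falls in MPP. Of the 11 genes 5 fell at 2 h and 6 at 4 h, where 1.00% and 2.06% of all genes fell. All 11 differences were below 0 at both times, and the median was −0.204 and −0.277. Hsd17b7, a ketoreductase of sterol demethylation, moved most in MPP. It stood at 11.04, 11.18 and 10.94 at 0 h, 10.68, 10.72 and 10.42 at 2 h and 10.63, 10.50 and 10.49 at 4 h, then at 10.80, 11.07 and 10.71 at 8 h, 11.02, 11.28 and 10.79 at 12 h and 11.04, 11.17 and 11.08 at 24 h. No array of 2 or 4 h reached the lowest untreated array. It fell, with a log2 difference of −0.45 ± 0.0756 (adjusted p = 0.00143) at 2 h and −0.52 ± 0.0756 (adjusted p = 0.000304) at 4 h and rose by 0.56 ± 0.0756 (adjusted p = 0.000183) from 4 h to 24 h. Without MPP 2 h replicate 3 the 2 h difference was −0.409 and did not pass. In CDP its levels were 10.90, 10.79 and 10.59 at 0 h, 10.32, 10.30 and 10.84 at 2 h, 10.45, 10.09 and 10.20 at 4 h and 11.03, 10.47 and 11.15 at 24 h. The 4 h difference in CDP was −0.52 ± 0.154 (adjusted p = 0.0545), with a larger SE than the 0.0756 of MPP, and did not pass, and CDP 2 h replicate 3 stood apart from the other 2 arrays.

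Msmo1, which oxidises the methyl groups of the sterol ring, had levels in MPP of 12.21, 12.19 and 11.86 at 0 h, 11.81, 11.85 and 11.49 at 2 h and 11.87, 11.82 and 11.56 at 4 h, with 12.19, 12.19 and 11.86 at 8 h, 12.25, 12.35 and 12.07 at 12 h and 12.10, 12.24 and 11.99 at 24 h. Replicate 3 was lowest throughout, and each replicate was below its own 0 h level at 2 and 4 h. The fall was −0.37 ± 0.0484 (adjusted p = 0.000144) at 2 h and −0.33 ± 0.0484 (adjusted p = 0.000292) at 4 h, and the rise from 4 h to 24 h 0.36 ± 0.0484 (adjusted p = 0.00018), all kept without any single array. Both falls were lost without replicate number 1 or 2, and the rise without number 2 (0.327). None of these calls passed without the block. Fdft1, squalene synthase, fell, with a log2 difference of −0.35 ± 0.0427 (adjusted p = 8.31e-05) at 2 h and −0.28 ± 0.0427 (adjusted p = 0.000416) at 4 h. Sqle, the squalene epoxidase, fell at 4 h, with a log2 difference of −0.29 ± 0.05 (adjusted p = 0.00116), and without MPP 4 h replicate 2 this was −0.252 and did not pass. Lss, which closes the ring to lanosterol, was at −0.27 and −0.31 at these times in MPP and did not pass.

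Cyp51, the lanosterol demethylase, changed in both directions. In MPP it stood at 11.43, 11.47 and 11.19 at 0 h, 11.28, 11.24 and 10.96 at 2 h, 11.31, 11.19 and 10.96 at 4 h, 11.65, 11.53 and 11.22 at 8 h, 11.71, 11.73 and 11.41 at 12 h and 11.67, 11.65 and 11.40 at 24 h. Its log2 difference from 0 h was −0.20 ± 0.0424 (adjusted p = 0.00733) at 2 h, a call lost in 11 of 18 omissions of a single array, and −0.21 ± 0.0424 (adjusted p = 0.00379) at 4 h, a call lost without untreated replicate 2 or 3 or without 4 h replicate 2 or 3 (−0.197, −0.195, −0.187 and −0.217). It was higher by 0.25 ± 0.0424 (adjusted p = 0.000579) at 12 h, which held without any single array, and by 0.21 ± 0.0424 (adjusted p = 0.0022) at 24 h, which was lost without untreated replicate 1 (0.178) or 24 h replicate 3 (0.199). In CDP its levels were 11.41, 11.35 and 10.96 at 0 h, 11.24, 11.14 and 11.22 at 2 h and 11.34, 11.27 and 11.07 at 4 h. They were 11.82, 11.81 and 11.55 at 8 h, 11.78, 11.73 and 11.44 at 12 h and 11.62, 11.37 and 11.63 at 24 h, so that every 8 h array lay above every untreated one. The rise was 0.49 ± 0.0963 (adjusted p = 0.0027) at 8 h and 0.41 ± 0.0963 (adjusted p = 0.00783) at 12 h. Without untreated CDP replicate 3, the lowest untreated array, it was 0.391 at 8 h and did not pass, as it did not without 8 h replicate 1 (0.493) or 2 (0.443), and the 12 h call was lost in 12 of 18 omissions.

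In CDP 5 of the 11 genes rose at 8 h and 3 at 12 h, where 4.62% and 5.58% of all genes rose. Sc5d, which puts a double bond in the sterol ring, stood in CDP at 11.13, 11.07 and 10.69 at 0 h, 10.96, 10.92 and 10.87 at 2 h, 11.27, 11.08 and 10.99 at 4 h, 11.50, 11.48 and 11.24 at 8 h, 11.33, 11.36 and 11.11 at 12 h and 11.33, 11.12 and 11.30 at 24 h. The 8 h arrays were all above the untreated ones, and the rise was 0.45 ± 0.0816 (adjusted p = 0.00153). It was 0.354 without untreated CDP replicate 3 and 0.411 without 8 h replicate 2, and did not pass in either case. In MPP Sc5d stood at 11.45, 11.60 and 11.33 at 0 h, 11.17, 11.22 and 10.95 at 2 h, 11.24, 11.26 and 11.04 at 4 h, 11.43, 11.52 and 11.10 at 8 h, 11.40, 11.58 and 11.13 at 12 h and 11.33, 11.54 and 11.26 at 24 h. It fell, with a log2 difference of −0.34 ± 0.0524 (adjusted p = 0.00061) at 2 h and −0.28 ± 0.0524 (adjusted p = 0.00265) at 4 h and was still below its own 0 h level in all 3 replicates at 24 h, where it did not pass. Without untreated MPP replicate 3 the 4 h difference was −0.251 and without 4 h replicate 2 it was −0.24, and neither passed.

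Tm7sf2, a sterol reductase, had the largest rise against 0 h of a sterol enzyme in CDP. Its levels there were 9.97, 9.97 and 9.64 at 0 h, 9.80, 9.83 and 9.41 at 2 h, 9.94, 9.96 and 9.52 at 4 h, 10.39, 10.11 and 10.13 at 8 h, 10.58, 10.51 and 10.14 at 12 h and 10.14, 10.40 and 9.90 at 24 h. All 12 h arrays were above all untreated arrays, with a rise of 0.55 ± 0.0826 (adjusted p = 0.00026) that held without any single array. The 8 h rise, 0.35 ± 0.0826 (adjusted p = 0.00962), was lost in 14 of 18 omissions. Nsdhl, the dehydrogenase that works beside Msmo1 and Hsd17b7, rose by 0.38 ± 0.0568 (adjusted p = 0.000332) at 8 h, 0.33 ± 0.0568 (adjusted p = 0.000808) at 12 h and, at 24 h, 0.22 ± 0.0568 (adjusted p = 0.00767), and only the last was lost with single arrays left out, in 13 of 18 cases. Lss rose at 8 h by 0.42 ± 0.094 (adjusted p = 0.00657), and this was lost without untreated replicate 1 (0.427) or 3 (0.306) and without 8 h replicate 1 (0.375) or 3 (0.363). Ebp, a sterol isomerase, and Dhcr7, the last reductase of the pathway, passed at no single time, with differences from −0.095 to 0.087 and from −0.26 to 0.28. Over the time course Dhcr7 passed the F-test in MPP (adjusted p = 0.00598) and in CDP (adjusted p = 0.000249), and Ebp in neither.

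**Figure D3:**
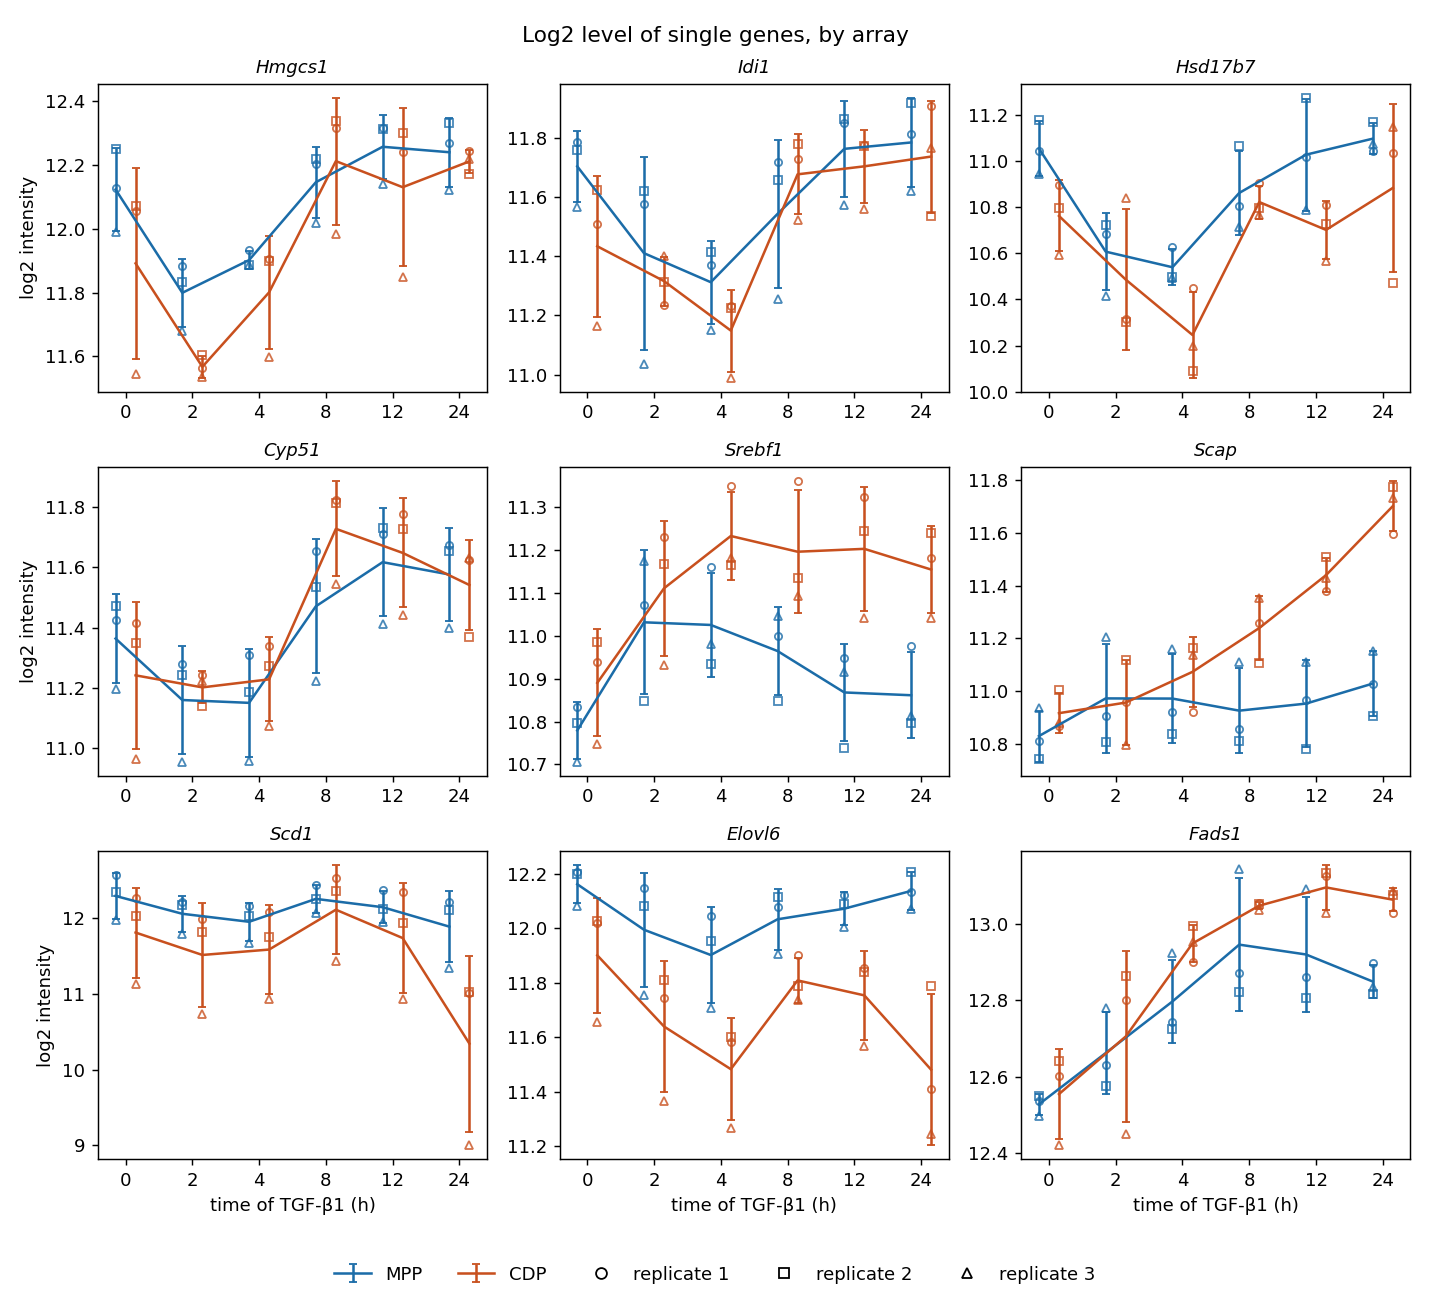
Log2 level (y axis, log2 intensity, a scale of its own in each panel) of 9 of the genes on every array against time of TGF-β1 in hours (x axis), in MPP (blue) and CDP (orange). Symbols are replicates, lines join means of 3 arrays and bars are 1 SD. Hmgcs1 and Hsd17b7 dipped at 2 and 4 h in MPP, Scap climbed in CDP to between 11.60 and 11.78 at 24 h, and CDP 24 h replicate 3 had the lowest Scd1 level of all.

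Among the sensors, Srebf1 and Scap rose in CDP while Srebf2 and Insig1 passed against 0 h at no time in either cell type. Scap encodes the protein that carries SREBPs to the Golgi. In CDP it stood at 10.87, 11.004 and 10.88 at 0 h, 10.96, 11.12 and 10.80 at 2 h, 10.92, 11.16 and 11.14 at 4 h, 11.26, 11.11 and 11.35 at 8 h, 11.38, 11.51 and 11.43 at 12 h and 11.60, 11.78 and 11.73 at 24 h. From 8 h on no array overlapped the untreated ones, though Scap passed only from 12 h on. The rise was 0.52 ± 0.0811 (adjusted p = 0.000317) at 12 h and 0.78 ± 0.0811 (adjusted p = 3.79e-06) at 24 h, and 0.63 ± 0.0811 (adjusted p = 5.8e-05) from 4 h to 24 h. The 24 h rise passed without any single array, without any replicate number and without the block. In MPP Scap stood at 10.81, 10.74 and 10.93 at 0 h, 10.91, 10.81 and 11.20 at 2 h, 10.92, 10.84 and 11.16 at 4 h, 10.86, 10.81 and 11.11 at 8 h, 10.97, 10.78 and 11.11 at 12 h and 11.03, 10.91 and 11.15 at 24 h. The groups overlapped, with replicate 3 highest throughout, but each replicate was above its own 0 h level at 24 h (by 0.217, 0.162 and 0.216), with a rise of 0.20 ± 0.0445 (adjusted p = 0.00536). That call was lost without untreated replicate 1 (0.207) or 3 (0.163) and without 24 h replicate 1 (0.18) or 2 (0.193).

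Srebf1, the gene of SREBP-1, which is known for fatty acid genes, stood in CDP at 10.94, 10.98 and 10.75 at 0 h, 11.23, 11.17 and 10.93 at 2 h and 11.35, 11.17 and 11.18 at 4 h, then at 11.36, 11.14 and 11.09 at 8 h, 11.32, 11.24 and 11.04 at 12 h and 11.18, 11.24 and 11.04 at 24 h. The 4 h arrays all lay above the untreated ones. It rose by 0.34 ± 0.0591 (adjusted p = 0.00177) at 4 h and 0.31 ± 0.0591 (adjusted p = 0.00227) at 8 h, by 0.31 ± 0.0591 (adjusted p = 0.00158) at 12 h and by 0.26 ± 0.0591 (adjusted p = 0.00333) at 24 h. Each of these 4 calls was lost without untreated CDP replicate 1 (0.311, 0.275, 0.281 and 0.233) or 3 (0.332, 0.296, 0.302 and 0.254), and without 2 of the 3 treated arrays of its time. In MPP it stood at 10.83, 10.80 and 10.71 at 0 h, 11.07, 10.85 and 11.18 at 2 h, 11.16, 10.93 and 10.98 at 4 h, 10.999, 10.85 and 11.05 at 8 h, 10.95, 10.74 and 10.92 at 12 h and 10.98, 10.80 and 10.81 at 24 h. The difference in MPP was 0.25 ± 0.0637 (adjusted p = 0.0266) at 2 h and 0.25 ± 0.0637 (adjusted p = 0.0228) at 4 h and did not pass.

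Srebf2, the gene of SREBP-2, which is known for sterol genes, had levels in MPP of 12.16, 12.32 and 12.25 at 0 h, 12.14, 12.18 and 12.35 at 2 h, 12.15, 12.17 and 12.21 at 4 h, 12.28, 12.31 and 12.35 at 8 h, 12.33, 12.37 and 12.37 at 12 h and 12.34, 12.30 and 12.35 at 24 h. In CDP it stood at 12.41, 12.61 and 12.42 at 0 h, 12.34, 12.54 and 12.42 at 2 h, 12.38, 12.47 and 12.35 at 4 h, 12.58, 12.54 and 12.47 at 8 h, 12.57, 12.65 and 12.51 at 12 h and 12.63, 12.64 and 12.65 at 24 h. The groups overlapped at most times, and the only change over time that passed was that from 4 h to 24 h in CDP, 0.24 ± 0.0511 (adjusted p = 0.00317), a call lost in 5 of 18 omissions (0.213 to 0.245). Insig1, which holds SCAP back when sterol is plentiful, stood in MPP at 12.19, 12.26 and 12.01 at 0 h, 12.005, 12.08 and 11.95 at 2 h, 12.06, 11.92 and 11.86 at 4 h, 12.22, 12.25 and 12.05 at 8 h, 12.12, 12.35 and 12.11 at 12 h and 12.19, 12.27 and 11.90 at 24 h. In CDP it stood at 12.01, 12.08 and 11.70 at 0 h, 11.75, 11.70 and 11.81 at 2 h, 11.91, 11.88 and 11.58 at 4 h, 12.30, 12.33 and 11.98 at 8 h, 12.10, 12.08 and 11.75 at 12 h and 11.98, 11.93 and 11.99 at 24 h. Its lowest difference was −0.21 at 4 h in MPP (adjusted p = 0.04) and its highest 0.27 at 8 h in CDP (adjusted p = 0.0524). Stard4, a carrier of cholesterol between membranes, rose in CDP by 0.26 ± 0.0592 (adjusted p = 0.0075) at 8 h, a call lost in 10 of 18 omissions, and by 0.26 ± 0.0592 (adjusted p = 0.0058) at 12 h, a call lost without untreated replicate 1 (0.262) or 3 (0.209) or 12 h replicate 1 (0.258) or 2 (0.226).

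The fatty acid genes went separate ways, with the FADS desaturases up in both cell types and Scd1, Elovl6 and Acly down at 24 h in CDP. In MPP Scd1 fell at 24 h and Elovl6 at 4 h, while Acly passed at no time. Scd1, which turns stearate into oleate, had the largest change of all 30 genes. In CDP it stood at 12.27, 12.03 and 11.14 at 0 h, 11.996, 11.82 and 10.73 at 2 h, 12.08, 11.75 and 10.93 at 4 h, 12.54, 12.37 and 11.44 at 8 h, 12.35, 11.94 and 10.93 at 12 h and 11.01, 11.02 and 9.0 at 24 h. Replicate 3 was lowest at every time, each replicate was above its own 0 h level at 8 h (by 0.272, 0.332 and 0.302), and all 3 arrays at 24 h lay below all untreated ones. The fall at 24 h was −1.47 ± 0.169 (adjusted p = 1.07e-05), with differences of −1.260, −1.009 and −2.138 within the 3 replicates. It passed without any single array and without any replicate number but not without the block. From 4 h to 24 h it fell, with a log2 difference of −1.24 ± 0.169 (adjusted p = 9.07e-05). In MPP it stood at 12.57, 12.34 and 11.98 at 0 h, 12.22, 12.17 and 11.79 at 2 h, 12.16, 12.03 and 11.67 at 4 h, 12.44, 12.25 and 12.07 at 8 h, 12.37, 12.13 and 11.95 at 12 h and 12.21, 12.11 and 11.35 at 24 h. The MPP groups overlapped, and the fall at 24 h was −0.41 ± 0.0849 (adjusted p = 0.00321), a call lost without untreated replicate 1 (−0.379). Scd2, its close relative, was at −0.18 at 24 h in CDP (adjusted p = 0.029) and −0.036 in MPP, and passed at no time.

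Fads1 and Fads2, the front-end desaturases of polyunsaturated fatty acids, rose in both cell types from 8 h on. Fads1 stood in MPP at 12.54, 12.55 and 12.50 at 0 h, 12.63, 12.57 and 12.78 at 2 h, 12.74, 12.72 and 12.92 at 4 h, 12.87, 12.82 and 13.14 at 8 h, 12.86, 12.81 and 13.09 at 12 h and 12.90, 12.82 and 12.84 at 24 h. In CDP it stood at 12.60, 12.64 and 12.42 at 0 h, 12.80, 12.87 and 12.45 at 2 h, 12.90, 12.995 and 12.95 at 4 h, 13.06, 13.05 and 13.04 at 8 h, 13.12, 13.13 and 13.03 at 12 h and 13.03, 13.08 and 13.09 at 24 h. From 4 h on no treated array of either cell type overlapped its untreated group. The rise in MPP was 0.42 ± 0.0646 (adjusted p = 0.000306) at 8 h, 0.39 ± 0.0646 (adjusted p = 0.000511) at 12 h and, at 24 h, 0.32 ± 0.0646 (adjusted p = 0.00235), and in CDP it was 0.39 ± 0.0725 (adjusted p = 0.00274) after 4 h, 0.49 ± 0.0725 (adjusted p = 0.000265) after 8 h, 0.54 ± 0.0725 (adjusted p = 8.97e-05) after 12 h and 0.51 ± 0.0725 (adjusted p = 8.23e-05) after 24 h. In MPP the 24 h call was lost without untreated replicate 3 (0.246) or 24 h replicate 1 (0.276) or 2 (0.301), and in CDP the 4 h call was lost in 5 of 18 omissions (0.348 to 0.413). The calls at 8 and 12 h in both cell types, and at 24 h in CDP, held without any single array. Of these only the CDP call at 24 h also passed without each replicate number.

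Fads2 stood in MPP at 12.95, 12.91 and 12.84 at 0 h, 12.94, 12.89 and 12.95 at 2 h, 13.03, 12.99 and 13.04 at 4 h, 13.22, 13.14 and 13.22 at 8 h, 13.29, 13.21 and 13.29 at 12 h and 13.28, 13.19 and 13.14 at 24 h. All MPP arrays from 8 h on were above all untreated ones, and the rise was 0.29 ± 0.0421 (adjusted p = 0.000162) at 8 h, 0.36 ± 0.0421 (adjusted p = 1.79e-05) at 12 h and, at 24 h, 0.30 ± 0.0421 (adjusted p = 8.63e-05). In CDP it rose by 0.31 ± 0.0476 (adjusted p = 0.000424) at 8 h, 0.37 ± 0.0476 (adjusted p = 5.51e-05) at 12 h and, at 24 h, 0.31 ± 0.0476 (adjusted p = 0.000144). All 6 calls held without any single array. With replicate number 1 left out, which leaves 2 arrays a group, only the MPP call at 12 h passed. Without number 3 the CDP call at 8 h (0.266) was lost, and without the block those of CDP at 8 and 24 h.

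Elovl6, which lengthens palmitate, fell in CDP, with a log2 difference of −0.42 ± 0.0794 (adjusted p = 0.00354) at 4 h and −0.42 ± 0.0794 (adjusted p = 0.000937) at 24 h, with −0.092 at 8 h between them. Its CDP levels were 12.02, 12.03 and 11.66 at 0 h, 11.58, 11.60 and 11.27 at 4 h, 11.90, 11.79 and 11.74 at 8 h and 11.41, 11.79 and 11.25 at 24 h. The groups of 0 h and 24 h overlapped, while each replicate was below its own 0 h level. The 24 h call held without any single array and the 4 h call was lost in 6 of 18 omissions (−0.441 to −0.391). Without replicate number 1 (−0.325) or 3 (−0.424) and without the block the 24 h call was lost. In MPP Elovl6 fell at 4 h, with a log2 difference of −0.26 ± 0.0563 (adjusted p = 0.00734), a call lost in 11 of 18 omissions. Acly, which makes cytosolic acetyl-CoA from citrate, fell in CDP at 24 h, with a log2 difference of −0.32 ± 0.0423 (adjusted p = 4.44e-05), with 11.79, 11.84 and 11.53 at 0 h and 11.42, 11.56 and 11.22 at 24 h, and this passed without any single array or replicate number but not without the block. Fasn, the fatty acid synthase, rose from 4 h to 24 h in CDP by 0.33 ± 0.0723 (adjusted p = 0.00398), but at 24 h was at 0.091 against 0 h. That call was lost without CDP 4 h replicate 1 (0.329) or 2 (0.257) or 24 h replicate 2 (0.319) or 3 (0.3). Acaca, which makes malonyl-CoA, passed at no single time, with differences from −0.032 to 0.18, but passed the F-test over the time course in CDP (adjusted p = 0.00806).

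Markers of other cells and of growth also differed between 0 and 24 h, when 5.61% of all genes rose and 4.09% fell in MPP and 7.83% rose and 11.9% fell in CDP. The mean of 10 monocyte and macrophage markers went from 11.11, 11.46 and 11.35 to 9.80, 10.25 and 10.12 in MPP and from 11.04, 10.87 and 11.32 to 8.78, 8.63 and 9.15 in CDP between 0 and 24 h, with 8 and 10 of the 10 passed as lower at 24 h. Of 18 S phase genes 13 fell in CDP at 24 h, and in MPP 1 rose and 1 fell. The mean of the 10 neutrophil granule genes was lower in every CDP replicate, at 9.23, 8.93 and 8.81 untreated and 8.29, 8.16 and 7.88 at 24 h, with 1 gene risen and 3 fallen. The mean of a mixed list of 10 markers of MPP or CDP was 10.61, 10.60 and 10.54 untreated and 11.26, 11.09 and 11.12 at 24 h in MPP (5 rose and 0 fell in limma, 2 being lower at the unadjusted p), and 10.72, 10.83 and 10.76 and then 11.54, 11.35 and 11.52 in CDP (7 rose and 2 fell). This list pools genes such as Kit and Flt3, which differed in opposite directions between untreated MPP and CDP. Its mean is therefore no measure of either cell type. The mean of 8 mast cell markers in MPP was 7.55, 7.47 and 7.24 untreated and 7.88, 7.72 and 7.59 at 24 h (2 rose and 1 fell). The part of these differences in the results above was not tested.

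Whether CDP and MPP responded differently was tested by the interaction, the CDP change minus the MPP change at the same time. None of the 30 genes passed at 2 h or at 4 h in limma (1 at an unadjusted p under 0.05 at each time), where 0.110% and 0.607% of all genes did. At 8 h 2 passed, against 1.88% of all genes, at 12 h 1, against 3.13%, and at 24 h 3, against 10.1%. At 8 h Sc5d was at 0.45 in CDP and −0.11 in MPP, with a difference of responses of 0.55 ± 0.0989 (adjusted p = 0.0011), and Nsdhl differed, with a log2 difference of 0.32 ± 0.0678 (adjusted p = 0.00534). Sc5d was above its 0 h level in all 3 CDP replicates (by 0.373, 0.412 and 0.550) and below its 0 h level in all 3 MPP replicates. The mean level of Sc5d in CDP and MPP was 10.963 and 11.457 at 0 h and 11.408 and 11.351 at 8 h. That of Nsdhl was 11.619 and 12.135 at 0 h and 11.994 and 12.189 at 8 h. Both genes were also lower in untreated CDP than in untreated MPP (below), and the same 0 h arrays enter both comparisons. At 12 h Scap differed, with a log2 difference of 0.40 ± 0.0935 (adjusted p = 0.0084). At 24 h Scap differed, with a log2 difference of 0.59 ± 0.0935 (adjusted p = 5.09e-05), with 0.78 in CDP and 0.20 in MPP, while Scd1 differed, with a log2 difference of −1.06 ± 0.2 (adjusted p = 0.00037) and Elovl6 by −0.39 ± 0.0995 (adjusted p = 0.00615), both lower in CDP. The calls of Sc5d at 8 h and of Scap and Scd1 at 24 h held in all 36 omissions of a single array, and those of Nsdhl, Scap at 12 h and Elovl6 were lost in 9, 22 and 8 of them. With a replicate number left out, which leaves 2 arrays a group, Sc5d at 8 h did not pass without number 1, 2 or 3 (0.632, 0.582 and 0.439), Scd1 at 24 h did not pass without number 1 (−1.14), and Scap at 24 h passed in each case. Without replicate 3 the interaction passed 0, 0 and 2 genes at 8, 12 and 24 h. Without the replicate block none of the 6 passed, and with a block shared by the cell types Sc5d at 8 h and Scap at 24 h did.

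**Figure D4:**
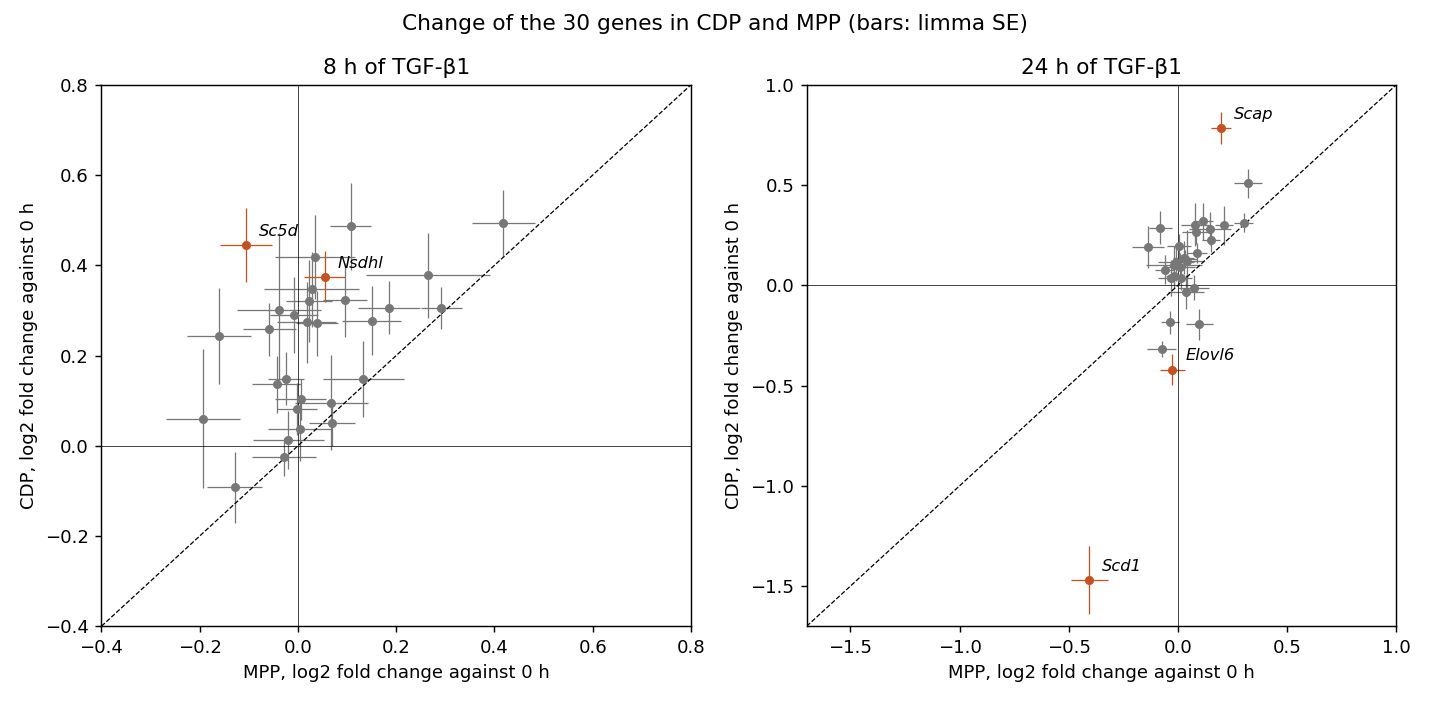
Log2 fold change against 0 h in CDP (y axis) against that in MPP (x axis) for the 30 genes at 8 h (left) and 24 h (right), with limma SE as bars. The dashed line marks equal change, and orange names mark genes whose difference of responses passed. Scd1 at 24 h lies at −0.41 in MPP and −1.47 in CDP, and Scap at 0.20 and 0.78.

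For untreated CDP against MPP the fit took the 12 groups together and had no block, since replicate numbers are not stated to pair the cell types. Of the 30 genes 5 were lower in CDP and 1 was higher, where 7.91% of all genes were lower and 6.17% higher, and the median was −0.209 against 0.0298 for all genes. The log2 difference, CDP minus MPP, was −0.60 ± 0.103 (adjusted p = 5.9e-05) for Stard4, −0.52 ± 0.119 (adjusted p = 0.00175) for Nsdhl, −0.49 ± 0.125 (adjusted p = 0.00417) for Sc5d, −0.40 ± 0.103 (adjusted p = 0.00451) for Dhcr7 and −0.26 ± 0.0638 (adjusted p = 0.00328) for Acaca. Srebf2 was higher in CDP, by 0.24 ± 0.0576 (adjusted p = 0.00283). Stard4 stood at 10.10, 10.12 and 9.72 in CDP and 10.59, 10.70 and 10.44 in MPP, with no overlap. Its call was the only one of the 6 that passed on the 6 untreated arrays alone and without each untreated array. The others were lost without untreated MPP replicate 1, where Nsdhl was −0.467, Sc5d −0.498, Dhcr7 −0.374, Acaca −0.226 and Srebf2 0.196. Without MPP replicate 2 Nsdhl (−0.479), Sc5d (−0.424), Dhcr7 (−0.381) and Acaca (−0.248) did not pass, nor did Srebf2 without CDP replicate 2 (0.172). Without CDP replicate 3 the differences were smaller and did not pass for Nsdhl (−0.39), Sc5d (−0.359), Dhcr7 (−0.309) and Acaca (−0.22). The neutrophil granule genes, higher in MPP by the levels given above, moved with this comparison, and their part in it was not tested.

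Genes around the pathway were counted at 24 h from lists of neighbouring steps. Of all genes 5.61% rose and 4.09% fell in MPP at that time, and 7.83% rose and 11.9% fell in CDP. Of 13 other genes of sterol synthesis and uptake none passed in MPP and 2 fell in CDP, a count near the share of all genes. These were Tmem97, a sterol-binding protein, at −0.56 ± 0.0749 (adjusted p = 4.23e-05), and Rdh11, a retinol dehydrogenase, at −0.34 ± 0.0632 (adjusted p = 0.000868). In limma's unadjusted tests at p under 0.05, 1 of the 13 was higher and 2 were lower in MPP. Of 19 genes of cholesterol efflux, storage and oxysterols 4 rose and 1 fell in MPP and 3 rose and 6 fell in CDP. In MPP Mylip, the ligase that marks lipoprotein receptors for breakdown, rose by 0.85 ± 0.0723 (adjusted p = 4.26e-07), Apoe by 0.79 ± 0.18 (adjusted p = 0.0061) and Npc1, which lets cholesterol out of lysosomes, by 0.53 ± 0.0613 (adjusted p = 1.18e-05). In CDP Nceh1, a cholesterol ester hydrolase, rose by 2.33 ± 0.133 (adjusted p = 9.15e-09) and Npc1 by 0.89 ± 0.0775 (adjusted p = 7.14e-07), while Scarb1, a lipoprotein receptor, fell, with a log2 difference of −1.07 ± 0.086 (adjusted p = 2.9e-07).

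Of 24 genes of fatty acid activation, elongation and glycerolipid synthesis 3 rose and 2 fell in MPP and 4 rose and 4 fell in CDP. Fads3, the third gene of the FADS cluster, rose by 1.04 ± 0.067 (adjusted p = 2.05e-08) in MPP and 1.31 ± 0.139 (adjusted p = 4.89e-06) in CDP, both at least 2-fold. In MPP Agpat3, an acyltransferase, fell, with a log2 difference of −0.41 ± 0.0771 (adjusted p = 0.00134) and Lpin2, a phosphatidate phosphatase, rose by 0.39 ± 0.0508 (adjusted p = 4.03e-05). In CDP the elongase Elovl7 rose by 1.03 ± 0.114 (adjusted p = 7.24e-06) and the acyl-CoA synthetase Acsl5 by 1.00 ± 0.0506 (adjusted p = 2.56e-09). Of 21 genes of fatty acid oxidation Cpt1a, the gate of acyl chains into mitochondria, rose in MPP (0.36 ± 0.0621 (adjusted p = 0.000628)), and in CDP Acadl, an acyl-CoA dehydrogenase, rose (0.67 ± 0.147 (adjusted p = 0.003)) and the thiolase Acaa2 fell (−0.47 ± 0.0675 (adjusted p = 8.14e-05)). The shares of these lists are set against the same 24 h background of 5.61% higher and 4.09% lower in MPP and 7.83% and 11.9% in CDP.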

How the data were processed

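RNA of 36 samples was hybridised to Affymetrix Mouse Gene 1.0 ST arrays. The authors deposited a table of log2 intensities per probe set. The submitters' processing notes name Affymetrix Power Tools and RMA (versions not given there), while the study's methods describe FARMS for its own analysis, so these values need not be the ones it analysed. RMA sets all arrays to 1 distribution, so changes are relative to other genes, and it compresses changes of dim genes. The labels name another RNA kit than the methods do. Of 35556 probe sets 21789 carry 1 symbol, 1621 several and 12146 none in the platform annotation, and only the first kind was used, the highest mean per gene (19938 genes, 3 members with several probe sets).

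limma 3.58.1 in R 4.3.3 (lmFit, eBayes, two-sided, Benjamini-Hochberg over all genes) compared each time with 0 h and 24 h with 4 h on the 18 arrays of a cell type, blocked by replicate number as in the study's methods. The interaction used all 36 arrays with a block within cell type. With 3 arrays a group, precision is limited by their number. Same-numbered arrays deviated together: the correlation of residuals was at least 0.189 in MPP over 45 pairs, and in CDP at least 0.212 for the 15 pairs with 0 h and 0.196 between 4 h and 24 h, with 43 of 45 pairs above 0.1 and the lowest at −0.128. The script was tested on simulated data. The members and lists were chosen with earlier results of these data known, so no p-value was adjusted over a list alone. Every array value is given for the 6 members per cell type with the largest change among those that passed the F-test and for Srebf1, Srebf2, Insig1 and Scap, and up to 3 genes per other list and cell type are named by size at 24 h. Hmgcs1, Stard4, Elovl6 and Acly values were added after they were seen. Alternatives were no block, a shared block, 1 fit of all arrays, the mean of probe sets, a filter on dim genes, eBayes with trend and robust, array weights, cyclic loess and leaving out arrays or replicate numbers.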

Additional observations from a re-analysis of the deposited data

Results flagged for a closer look

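A difference of responses between CDP and MPP (the CDP change minus the MPP change, limma interaction, adjusted over all genes) passed for 5 of the 30 genes, at 6 gene and time pairs. These were 2 genes at 8 h, 1 at 12 h and 3 at 24 h, where 1.88%, 3.13% and 10.1% of all genes passed, so the counts at 12 and 24 h lie near the share of all genes. At 8 h Nsdhl differed by 0.321 and Sc5d by 0.551, both higher in CDP. Scap differed by 0.400 at 12 h and by 0.585 at 24 h, again higher in CDP. At 24 h Elovl6 differed by −0.395 and Scd1 by −1.06, both lower in CDP. Sc5d was above its own 0 h level in 3 of 3 CDP replicates and below it in 3 of 3 MPP replicates at 8 h, whereas Scd1 was below it in 3 of 3 replicates of both cell types at 24 h.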

How the results depend on the processing

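No gene that passed changed sign under any alternative that was run. Of the recomputed single-gene calls 1859 stayed past the threshold and 471 fell short of it with the direction kept. The untested mean of the 30 genes did change sign in MPP at 8 h (−0.0165) and 24 h (−0.0174) without untreated replicate 3, and in CDP at 24 h (−0.0364) without untreated CDP replicate 3. These omissions kept the treated arrays of replicate 3, which was the lowest replicate. Without replicate 3 at all times the sign was kept, with 0.00522 and 0.0274 in MPP and 0.0198 in CDP. The counts of genes that passed leaned on the block: without it 0, 0, 1 and 1 passed in MPP at 2, 4, 12 and 24 h and 0 from 4 to 24 h, while 0, 1, 3 and 2 passed in CDP at 4, 8, 12 and 24 h and 2 from 4 to 24 h. The F-test then passed 2 genes in MPP and 6 in CDP, and the interaction 0 at 8, 12 and 24 h. With a replicate block shared by the cell types the interaction passed 1, 0 and 1 at 8, 12 and 24 h. One fit of all 36 arrays with the block gave 4 and 2 in MPP at 4 and 24 h, and 1, 14 and 13 in CDP at 2, 8 and 24 h with 16 from 4 to 24 h. Array weights gave 12 and 16 in MPP at 2 and 4 h and 4, 5, 17 and 14 in CDP at 2, 4, 8 and 12 h, and cyclic loess gave 14 in CDP at 24 h. The 6 untreated arrays alone left 1 gene between CDP and MPP. The cause of these moves was not tested.

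Leaving out single arrays or replicate numbers (for the interaction, part of the single arrays was added after seeing the data), the counts ran in MPP from 1 to 7 at 2 h, 0 to 11 at 4 h, 0 to 2 at 8 h, 1 to 4 at 12 h, 0 to 5 at 24 h and 2 to 11 from 4 to 24 h. In CDP they ran from 0 to 1, 0 to 3, 0 to 11, 0 to 10, 4 to 11 and 2 to 12. The interaction stayed at 0 at 2 h and ran from 0 to 1 at 4 h, 0 to 2 at 8 h, 0 to 2 at 12 h and 1 to 4 at 24 h, the untreated comparison from 1 to 6, and the F-test from 4 to 16 in MPP and 2 to 23 in CDP. The lowest counts came mostly without replicate 1, which leaves 2 arrays a group.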
